A study of Mus musculus with 2 samples.

Results

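The genes described here are the Six-family members Six2, Six3, Six4, Six5 and Six6 and the Eya family members Eya1, Eya2, Eya3 and Eya4. Their regions were taken as the distinct intervals of the deposited ATAC-Seq peak list that carry the symbol of 1 of these 9 genes. This gave 20 of the 26232 distinct peaks in the list, and 9 of 9 genes had at least 1 peak. ATAC-Seq marks open chromatin through the insertion of sequencing adapters by the Tn5 transposase. The cells were day 5 cardiac progenitor cells (CPCs), obtained in culture from the mouse embryonic stem cell line E14 Tg(Nkx2-5-EmGFP), which carry a green fluorescent reporter for Nkx2-5. The labels give the strain as C57BL/6 and no treatment. Per the labels of both samples, BMP4, Activin A, VEGF, bFGF and FGF10 were added during differentiation. There was 1 group of 2 replicates, from independent differentiations of the same reporter line, and both share 1 list. Isl1 knockdown cells named in the design of the series are not analysed here.

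Six-family proteins are homeodomain transcription factors that bind DNA through a homeodomain and an adjoining Six-type domain. Eya proteins do not bind DNA by themselves, carry phosphatase activity and act as coactivators of Six-family proteins. Together with Pax factors and Dach cofactors they form a regulatory network first described in the fly eye, which in vertebrates acts in the ear, kidney, muscle, eye and the progenitors of the cardiac outflow tract.

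The list holds no signal, score or value for a single replicate, so depth is unknown and no error or test could be given for any peak. Each value below is a description, read beside the same value over all peaks or all genes. The cell type was checked against its markers: 6 of 7 cardiac progenitor genes had peaks, with 8 for Isl1, 6 for Tbx20 and 0 for Hand2. Peaks were also assigned to 4 of 4 neural, 4 of 4 blood and endothelial, 3 of 4 pluripotency and 2 of 3 skeletal muscle markers. The presence of a peak therefore did not separate these cell types. The paper reports that most, but not all, cells were usually reporter-positive under its directed protocol. The share of other cells in the cultures used here is not given.

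Among 21896 protein coding genes of the reference table, 62.5% had a peak, against 9 of 9 here. The Six-family genes had 12 peaks, or 2.40 per gene, and the Eya genes had 8, or 2.00 per gene, against 1.71 per gene over the 15351 genes with a peak. Six2 had 5 peaks. Six6, Eya1 and Eya2 had 3 each, Six3 had 2, and Six4, Six5, Eya3 and Eya4 had 1 each. Thus 4 of 9 members had 3 or more peaks, where 16.5% of all genes with a peak did. The count rests on the deposited assignment. It was 3 of 9 with peaks given to the nearest GENCODE coding TSS (18.5% of all genes with a peak). With only peaks wider than the median it was 1 of 9, where the share over all genes with such a peak was 4.67%. With peaks in or within 10 kb of the gene body it was also 1 of 9, and the share over all genes was not computed. A single peak was found at 4 of 9, where the share over all genes was 60.8%.

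**Figure D1:**
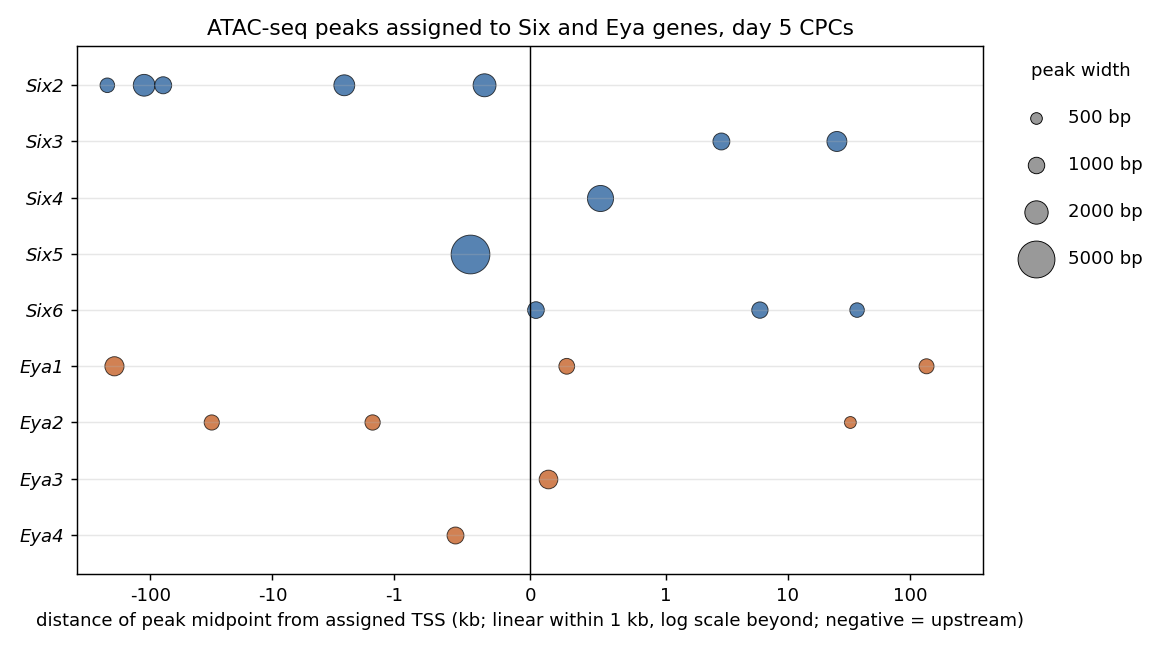
Distance of each of the 20 peaks from its assigned transcription start site (TSS), in kb on an axis that is linear within 1 kb and logarithmic beyond, with 1 row per gene and the area of each circle proportional to peak width. All 5 Six2 peaks lie upstream and all Six3 and Six6 peaks downstream, and the Six5 peak is the widest at 5535 bp.

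Distances below are the deposited ones, from the assigned TSS to the peak midpoint, with negative values upstream. Coordinates are 1-based on mm9. A peak lay within 1 kb of the assigned TSS at 7 of 9 members, against 74.6% of all genes with a peak. The exceptions were Six3 and Eya2. Measured another way, a peak covered an annotated coding TSS (GENCODE vM1) at 6 of 9 members, namely Six2, Six4, Six5, Six6, Eya1 and Eya3, against 54.9% of 22359 protein coding genes. At Eya4 the edge of the peak lay 77 bp from the TSS, and at Eya2 and Six3 the nearest edges were 1079 and 2130 bp away.

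The sequence at the start sites differed in its content of CpG dinucleotides. Windows of 50 bases on either side of the most upstream coding TSS are shown for the covered starts of Six2 and Eya3 and for the start of Eya2, which no peak reached, in the direction of transcription with CpGs in capitals.
Six2 (chr17:86087544-86087644, minus strand): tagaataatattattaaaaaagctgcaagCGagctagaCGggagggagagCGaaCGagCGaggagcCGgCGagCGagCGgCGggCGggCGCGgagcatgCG
Eya3 (chr4:132194852-132194952, plus strand): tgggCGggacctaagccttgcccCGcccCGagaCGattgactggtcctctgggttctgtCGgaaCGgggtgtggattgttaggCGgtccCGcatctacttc
Eya2 (chr2:165480748-165480848, plus strand): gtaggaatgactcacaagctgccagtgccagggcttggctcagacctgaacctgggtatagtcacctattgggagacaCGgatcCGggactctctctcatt
The Six2 window held 14 CpGs and the Eya3 window 8, whereas the Eya2 window held 2. In windows of the same length the covered starts of Six5, Six6 and Six4 held 6, 5 and 4 CpGs. The starts of Six3 and Eya4, which no peak covered, held 5 and 4. The counts at covered and uncovered starts thus overlapped.

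Six2 (NM_011380), best known as the factor that maintains nephron progenitors, lies on the minus strand at chr17:86083608-86087594. Its 5 peaks lay 336, 2577, 78486, 112356 and 225016 bp upstream of the start, and only 3.54% of all genes with a peak had as many. The promoter peak (chr17:86086960-86088901, 1942 bp) covered the TSS, and a gap of 466 bp separated it from the next peak (chr17:86089368-86090976, 1609 bp). The remaining 3 lay farther upstream, at chr17:86165546-86166616 (1071 bp), chr17:86199077-86200824 (1748 bp) and chr17:86312219-86313003 (785 bp). The peak at 112 kb was wide for its position, at the 96.8 percentile of width among all peaks beyond 100 kb from a TSS. No protein coding gene is annotated in the 296 kb between Six2 and the next one upstream, Srbd1.

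Six3 (NM_011381), which acts in the forebrain and eye, lies next to Six2 on the plus strand at chr17:86012948-86031153. Its deposited distances were counted from a start near position 86020174, inside the annotated gene. The most upstream coding start, on which the CpG window above was centred, is at position 86012948. Six3 had a peak in an intron (chr17:86022501-86023558, 1058 bp, +2855 bp) and an intergenic peak downstream (chr17:86044664-86046134, 1471 bp, +25224 bp). The latter was the only peak in the 52454 bp between the annotated ends of Six3 and Six2, and 40825 bp separated it from the nearest Six2 peak. Six3os1, a noncoding gene of the opposite strand, carried 3 further peaks. Of these, the one at chr17:86015903-86017990 (2088 bp) lay inside the annotated bodies of both Six3 and Six3os1, so the Six3 locus held more peaks than were assigned to Six3.

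Six6 (NM_011384), a factor of the retina and pituitary, lies at chr12:74040932-74045886 on the plus strand. Its first peak (chr12:74040399-74041427, 1029 bp, +43 bp) covered the TSS, and its midpoint fell in an untranslated region of 4930447C04Rik, which is transcribed from the opposite strand. Peaks at chr12:74046281-74047267 (987 bp, +5904 bp) and chr12:74077386-74078165 (780 bp, +36906 bp) lay beyond the end of the gene.

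Six4 (NM_011382), which acts in muscle precursors, lies on the same chromosome on the minus strand at chr12:74201246-74214401. Its single peak (chr12:74212463-74214973, +515 bp) was 2511 bp wide, at the 97.2 percentile of all peaks, and covered both annotated coding starts. The peak held 2 copies of TCAGGTTTC, the MEF3 form of the Six-family binding motif, shown here in capitals because the motif is that of the family itself. Their distances below are counted from the most upstream coding start, at position 74214401. The deposited distance of the peak is counted from position 74214233 instead. Relative to that position the copy at chr12:74214303-74214351 lies upstream.
Six4, 1769 bp downstream of the start (chr12:74212608-74212656, plus strand): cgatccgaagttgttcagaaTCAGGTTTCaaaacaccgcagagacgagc
Six4, 74 bp downstream of the start (chr12:74214303-74214351, plus strand): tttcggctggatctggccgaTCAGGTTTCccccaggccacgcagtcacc
These letters, searched on both strands, occurred at least once in 1.76% of all peaks and at least 2 times in 11 of 26232. A wide peak offers more room for a match. Of 731 peaks at least as wide as that of Six4, 33 held the letters at least once and 2 held them at least 2 times. A match to the letters is not evidence of binding.

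Six5 (NM_011383) lies directly downstream of Dmpk, the myotonic dystrophy protein kinase gene, at chr7:19679893-19683694. Its single peak (chr7:19676686-19682220, -441 bp) was 5535 bp wide, and 10 of the 26232 peaks were wider. It ran from 3207 bp before the Six5 TSS to 2328 bp inside the gene. Of its length, 2485 bp lay in the Dmpk body and 722 bp between the genes, and no peak in the list carried the symbol Dmpk. In successive windows of 500 bp, the observed over expected CpG ratio was 0.26 at the Dmpk end, 1.01 in the window centred 543 bp inside Six5, which held 62 CpGs, and 0.15 in the last full window. The peak thus spanned CpG-rich and CpG-poor sequence.

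**Figure D2:**
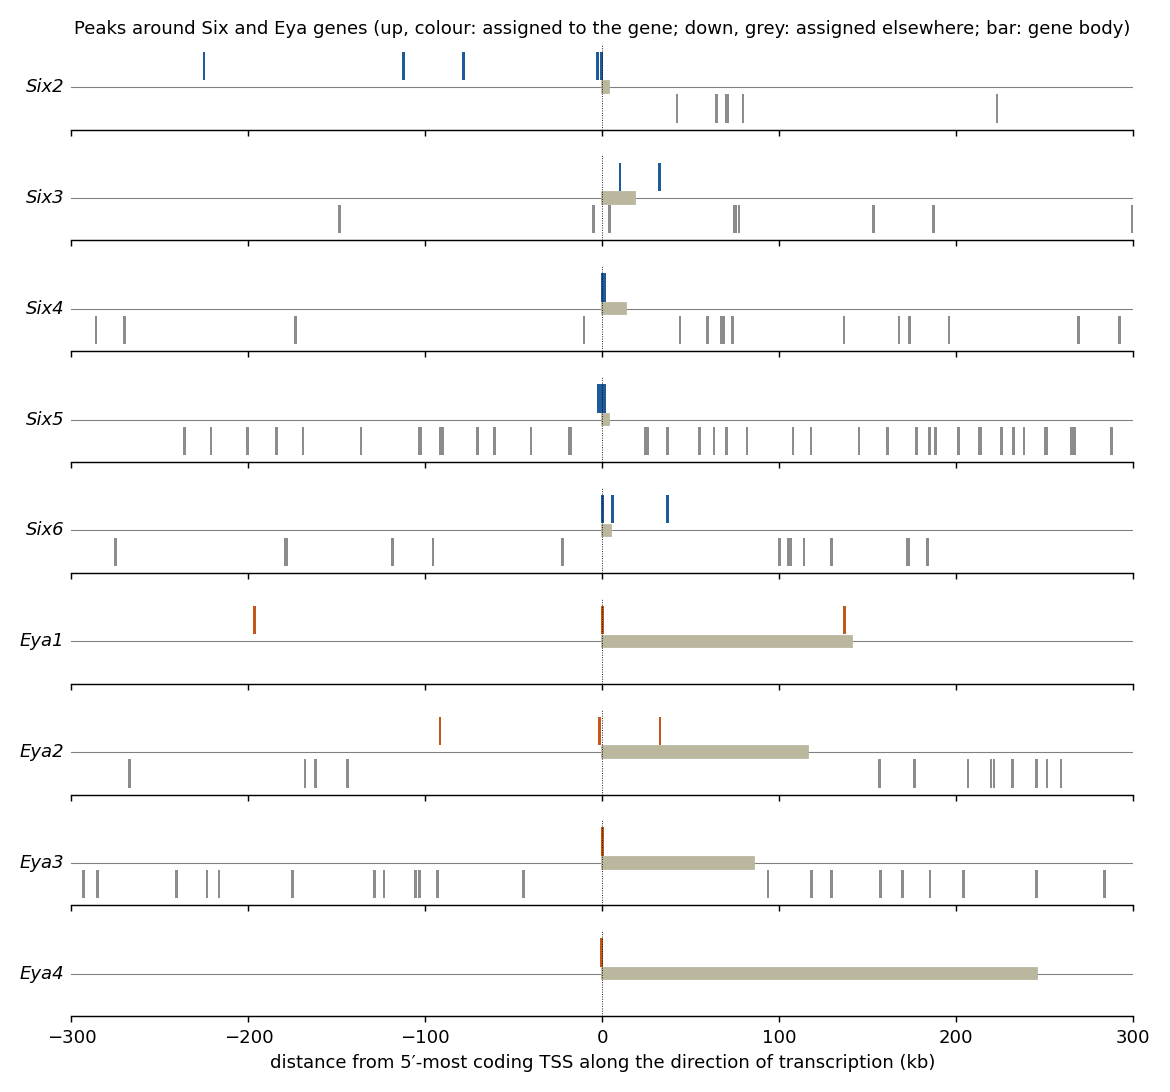
Peaks within 300 kb of the most upstream coding TSS of each gene, drawn in the direction of transcription, with peaks assigned to the gene above the line, peaks assigned elsewhere below it in grey, and the gene body as a bar. Peaks narrower than 1.5 kb are drawn 1.5 kb wide so that they can be seen. Eya4 has 1 peak in this window and Eya1 has 3, whereas Six5 has 36.

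Eya1 (NM_010164), the branchio-oto-renal syndrome gene, extends over 141 kb on the minus strand at chr1:14159035-14300281. A peak of 921 bp (chr1:14299551-14300471, +270 bp) covered 2 of its 3 annotated coding starts. Another lay in an intron 136788 bp downstream (chr1:14163078-14163908, 831 bp), and the third lay 196716 bp upstream (chr1:14496321-14497673, 1353 bp). No other peak was listed within 300 kb of the start. Across 1094 kb of the chromosome the list thus held only these 3 peaks, and all belonged to Eya1. The nearest protein coding genes, Xkr9 and Msc, were 467 and 443 kb away.

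Eya2 (NM_010165) lies on the plus strand at chr2:165480798-165597227. Its peaks were at chr2:165388711-165389561 (851 bp), chr2:165478856-165479719 (864 bp) and chr2:165513069-165513587 (519 bp), and the last of these was the narrowest of the 20. The deposited distances were -31393, -1511 and +32529 bp. The distance of the most upstream peak was counted from a start at position 165420529, which is not an annotated coding start in GENCODE. From the GENCODE start the same peak lay 91662 bp upstream.

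Eya3 (NM_010166), a broadly expressed member, had 1 peak (chr4:132194452-132195738, 1287 bp, +133 bp), which covered all 3 annotated coding starts of the gene at chr4:132194902-132280680. Eya4 (NM_010167), a gene linked to hearing loss and dilated cardiomyopathy, also had 1 peak (chr10:23069778-23070835, 1058 bp, -557 bp), beside a gene body of 246 kb at chr10:22823974-23069701. The gaps to the next peaks were 476572 and 435765 bp. The nearer of them stood at the 99.04 percentile of nearest gaps among all peaks. In the 300 kb on either side of the Eya4 start this was the only peak. Over all protein coding genes 9.03% had 1 or none in that window, and the median was 11.

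The Eya genes have long bodies. Away from the starts, by more than 1 kb, Eya1 and Eya2 held 1 peak each and Eya3 and Eya4 none. Among 2105 genes of comparable length, between 85.8 and 246 kb, 49.2% held none, so the count of 2 of 4 did not stand apart. The density was 0.34 peaks per 100 kb over the 4 Eya genes and 0.73 over the genes of comparable length. The Eya peaks also lay farther from their neighbours, with a median nearest gap of 93424 bp, against 11822 bp for the Six-family peaks and 17922 bp for all peaks.

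By distance, 7 of the 20 peaks (35.0%) lay within 1 kb of the assigned TSS, against 44.9% of all peaks, and 4 (20.0%) lay beyond 100 kb, against 8.20%. The latter were the peaks of Six2 at 112 and 225 kb and of Eya1 at 137 and 197 kb. The groups between were 4 peaks at 1 to 10 kb, 4 at 10 to 50 kb and 1 at 50 to 100 kb. Beyond 10 kb there were 9 peaks (45.0%, against 41.4%). Upstream and downstream peaks were equal in number, at 10 each, whereas 40.3% of all peaks lay upstream. By annotation, 13 of the 20 midpoints were intergenic (38.3% of all peaks were), 4 were intronic (32.4%) and 3 exonic (29.3%). The 13 include the promoter peaks of Six2, Six5 and Eya4, 3 peaks within 1 kb whose midpoints lay just upstream of the gene.

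The median width of the 20 peaks was 1058 bp, against 1081 bp for all peaks (quartiles 835 and 1433 bp). It was 1271 bp for the Six-family peaks and 892.5 bp for the Eya peaks. Since peaks near a TSS are wider in this list, each peak was set beside those of the same distance class. Then 8 of 12 Six-family peaks and 2 of 8 Eya peaks were wider than the median of their class. Within 1 kb, where that median was 1326 bp, the peaks of Six2, Six4 and Six5 were above it and those of Six6, Eya1, Eya3 and Eya4 below it. The Eya1 promoter peak of 921 bp stood at the 12.1 percentile of its class, and its upstream peak of 1353 bp at the 91.9 percentile of peaks beyond 100 kb. Depth and the caller's settings also shape width, and their part in these differences was not tested.

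**Figure D3:**
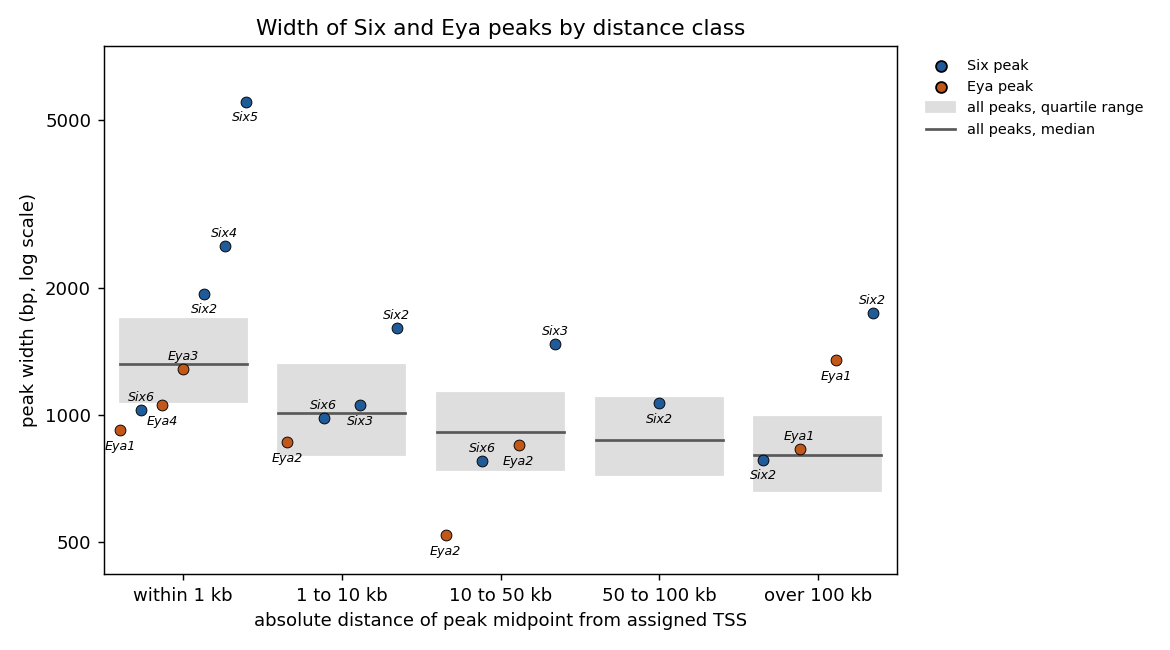
Width of each of the 20 peaks in bp on a log scale, grouped by absolute distance from the assigned TSS, with grey boxes for the quartiles and lines for the median of all peaks in the class. The promoter peaks of Six2, Six4 and Six5 lie above the box, as do other peaks of Six2, Six3 and Eya1. The promoter peaks of Six6, Eya1 and Eya4 and the Eya2 peak of 519 bp lie below it.

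The median GC content of the member peaks was 58.4% (95% order-statistic interval 53.6 to 60.5%), against 54.5% for all peaks. Their median CpG ratio was 0.59 (interval 0.22 to 0.71), against 0.44. Both intervals hold the median of all peaks, but they treat peaks of the same gene as independent, so this is a description and not a test. Among peaks within 1 kb the Six5 peak had the lowest ratio of the 7 (0.53) and the Six2 peak the highest (0.82). At 1 to 10 kb the Six3 and Six6 peaks were high (0.62 and 0.87) and those of Six2 and Eya2 low (0.18 and 0.13). Beyond 10 kb, 5 of 9 peaks had a ratio above the upper quartile of all peaks in their class. They belonged to Six2 (112 kb upstream, ratio 0.59), Six3 (25.2 kb downstream, 0.45), Six6 (36.9 kb downstream, 0.44), Eya1 (197 kb upstream, 0.58) and Eya2 (31.4 kb upstream of the assigned start, 0.64). The central 100 bases of the Six2, Eya1 and Eya2 peaks are shown to make this visible, with CpGs in capitals.
Six2 (chr17:86199901-86200000, plus strand): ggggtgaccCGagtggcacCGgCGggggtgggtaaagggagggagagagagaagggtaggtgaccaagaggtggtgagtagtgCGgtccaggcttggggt
Eya1 (chr1:14496948-14497047, plus strand): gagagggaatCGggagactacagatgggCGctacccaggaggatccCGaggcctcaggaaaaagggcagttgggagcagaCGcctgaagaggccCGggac
Eya2 (chr2:165389087-165389186, plus strand): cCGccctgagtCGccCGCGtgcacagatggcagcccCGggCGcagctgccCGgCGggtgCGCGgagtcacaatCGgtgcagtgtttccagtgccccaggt
The Eya2 sequence held 11 CpGs, the Eya1 sequence 5 and the Six2 sequence 4. The other 4 distal peaks had ratios of 0.06 and 0.14 at Six2, 0.13 at Eya1 and 0.22 at Eya2. Both kinds of distal peak thus occurred at the same gene for Six2, Eya1 and Eya2.

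**Figure D4:**
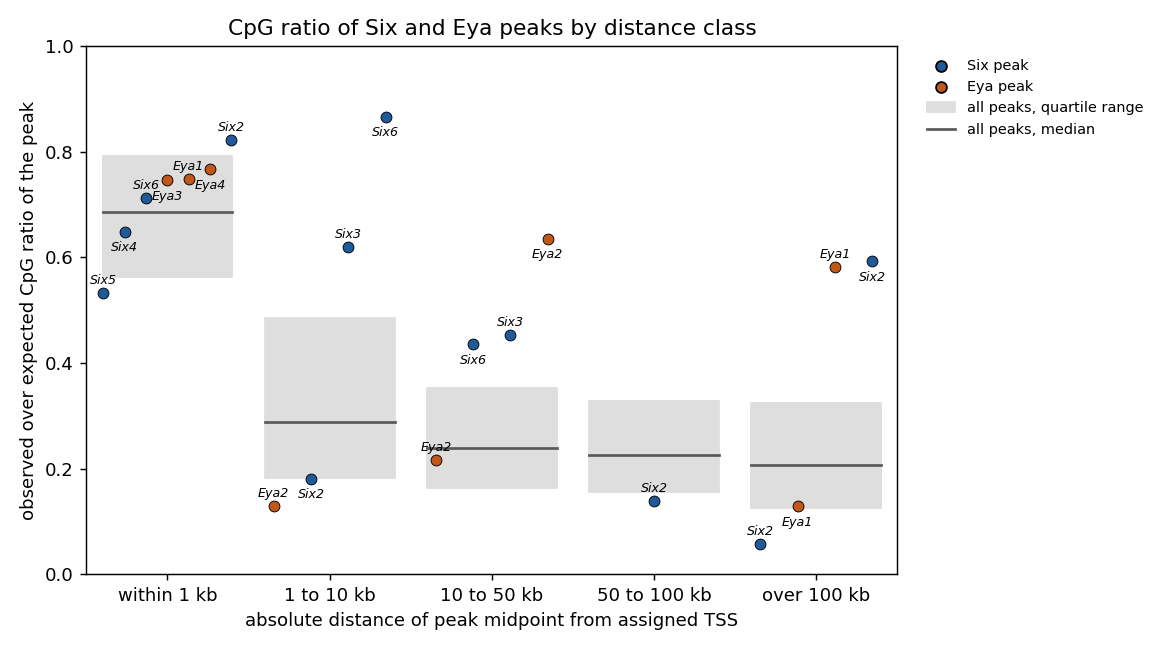
Observed over expected CpG ratio of each of the 20 peaks by absolute distance from the assigned TSS, with grey boxes for the quartiles and lines for the median of all peaks in the class. Of the 9 peaks beyond 10 kb, 5 lie above the box of their class, at ratios of 0.44 to 0.64.

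Short motifs were searched as letters on both strands in the central 300 bp of each peak. AGATAA, the core bound by GATA factors, of which Gata4 acts in CPCs, was found in 4 of 20 member peaks (20.0%) and in 9.50% of all peaks. All 4 lay beyond 10 kb, where the counts were 4 of 9 and 15.9% of 10848 peaks. Each match is shown with 20 bases on either side, because these distal peaks are the ones that share the letters.
Six2, 78.5 kb upstream (chr17:86165939-86165984, minus strand): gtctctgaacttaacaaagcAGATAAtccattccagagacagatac
Six6, 36.9 kb downstream, 1st match (chr12:74077690-74077735, minus strand): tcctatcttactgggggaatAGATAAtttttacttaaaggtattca
Six6, 36.9 kb downstream, 2nd match (chr12:74077817-74077862, plus strand): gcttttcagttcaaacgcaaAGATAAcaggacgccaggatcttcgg
Eya1, 137 kb downstream, 1st match (chr1:14163429-14163474, plus strand): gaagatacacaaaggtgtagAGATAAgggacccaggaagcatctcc
Eya1, 137 kb downstream, 2nd match (chr1:14163561-14163606, minus strand): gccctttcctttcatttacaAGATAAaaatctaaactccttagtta
Eya2, 32.5 kb downstream (chr2:165513413-165513458, plus strand): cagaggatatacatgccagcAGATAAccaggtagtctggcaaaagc
In whole peaks the letters were found in 10 of 20 (50.0%), against 33.5% of all peaks. They were then found in 5 of the 9 distal peaks, against 37.5%, and in 4 of the 7 within 1 kb, against 29.7%, so their concentration in distal peaks held for the central window only. The E-box CAGCTG was found in the centre of 8 of 20 peaks (40.0%, against 21.2%), and GGAATG, the TEAD motif, in 2 of 20 (10.0%, against 16.5%). In whole peaks the shares were 75% against 52.2% for the E-box and 45.0% against 47.1% for the TEAD motif. CTAATG, a core bound by ISL1, was in the centre of 0 of 20 (95% Wilson interval 0 to 16.1%) and of 6.54% of all peaks, and in 4 of 20 whole peaks, against 24.5%. Neither TCAGGTTTC nor the short Six-family motif GGTATCA was in the centre of a member peak, against 0.57% and 1.01% of all peaks. With 20 peaks these shares are imprecise, and no match says only that the letters were not in the window.

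The wider network was read from a list of 12 partner genes, and 12 of 12 had a peak, with 39 peaks in all or 3.25 per gene. The Pax genes, which encode paired-domain factors upstream of or beside Six-family and Eya, had 7 peaks at Pax2, 4 at Pax3 and 3 each at Pax6, Pax7 and Pax8. The cofactor Dach1 had 4 peaks and Dach2 had 1. The Groucho-type corepressors had 8 at Tle3, 2 each at Tle1 and Tle4, and 1 at Tle2, and the Six-binding protein gene Sobp had 1. Of the partner peaks, 64.1% lay beyond 10 kb, against 45.0% of the Six-family and Eya peaks and 41.4% of all peaks. Beside them, 8 of 10 second heart field genes had 33 peaks in all, or 3.30 per gene with all 10 counted. These included 8 at Isl1, 5 at Tbx5, 4 at Mef2c, 3 at Fgf10 and 1 at Tbx1, and none at Fgf8 or Hand2. The Six-family and Eya genes had 2.22 peaks per gene. The 7 cardiac progenitor markers, all of them also in the second heart field list, had 4.14. The marker lists of other cell types had 2.75 (neural), 2.25 (blood and endothelium), 2.00 (pluripotent cells) and 1.00 (skeletal muscle). The members' value lay within the range of the lists of other cell types, which have only 3 or 4 genes each.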

How the data were processed

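ATAC-Seq was carried out on 2 replicates of day 5 CPCs. Per the study's methods, bowtie2 aligned the reads to mm9, samtools removed secondary alignments and improper pairs, and Picard removed duplicates (version 1.136 per the submitters' processing notes). Peaks were called per replicate with MACS14 without a fragment model and with a fixed shift. Blacklisted regions were dropped, and peaks overlapping between replicates by 1 bp were kept with bedtools (version 2.15 per the same notes). HOMER assignment of the nearest TSS is described for ChIP-Seq peaks. The authors deposited 1 list with 6 columns, chromosome, start, end, distance, accession and symbol. Regions found in just 1 replicate are therefore missing from it, and width depends on the caller and on depth, which is unknown.

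The 26429 lines gave 26232 distinct intervals. The members' 20 peaks stood on 21 lines. Positions, sequence and gene models came from NCBIM37 (mm9) and GENCODE vM1. The RefSeq table (GRCm38.p6) was used for names only, including those of the 21896 protein coding genes of which 62.5% had a peak. A gene named otherwise in the list would count there as having no peak, and the effect of this was not tested. The CpG ratio is the observed number of CpGs over that expected from the C and G content of the peak. Python 3.11.15, pandas 2.3.3 and pyfaidx 0.9.0.4 were used, and scripts were checked on simulated data. With 1 group and 1 shared list no test between groups was possible. All members with all their peaks were named, together with neighbouring genes and the genes of fixed lists. Members and lists were chosen with earlier results of these data known. A further gene of the family, not among the members, and the sequence at 1 start site are not reported here. Alternatives were other width minimums, other gene assignments, other windows and repeated lines, and, chosen after seeing the data, how close a peak must come to a TSS.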

Additional observations from a re-analysis of the deposited data

How the results depend on the processing

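Of 101 combinations of a result and an alternative, 78 stayed within 1.5 times the count or within the 95% interval of the share or median, and 23 moved, 10 of them counts of single genes. The minimum width of 500 bp removed no member peak, since the narrowest was 519 bp. Its combinations are among the 78 and stayed by construction. With every line counted, and so a repeated Six3 line, the median number per gene was 3 and 5 members had 3 or more peaks. Both are also among the 78, the median at the limit of 1.5 times itself. With only peaks wider than the median of all peaks, the members kept 8 of 20 peaks and the median number per gene fell from 2 to 1. The share of members with a peak fell from 100% to 66.7% (Six6, Eya2 and Eya4 had none). Of the 15351 genes with a peak, 10466 kept at least 1. The number of members with 3 or more peaks fell from 4 to 1, while the share over all genes fell from 16.5% to 4.67%. The median width rose from 1058 to 1678.5 bp by construction. With each peak given to the nearest GENCODE coding TSS, the median per gene was 1, Six6 had 1 peak, and Six3 had more peaks than Six2 (5 against 4), the opposite of the deposited order. The median width was then 1179 bp, above the 1081 bp of all peaks, where with the deposited symbols it was below, so the side on which it falls depends on the assignment. With all peaks in the gene body or 10 kb on either side, 1 member had 3 or more peaks and 81.2% of the peaks lay within 10 kb, against 55.0%, since this rule leaves out most distal peaks. Searching whole peaks raised the share with the GATA letters from 20.0% to 50.0%, the ISL1 core from 0% to 20.0%, the E-box from 40.0% to 75% and the TEAD letters from 10.0% to 45.0%, as longer sequence holds more matches. In the central 300 bp the median GC content was 64.7%, against 58.4% in whole peaks. With a slack of 100 or 1000 bp, chosen after seeing the data, 7 of 9 members had a peak at a coding TSS. No paired analysis was possible because there was 1 group, and neither replicate could be left out because no value of a single replicate was given. The depth of the samples is unknown, so the absence of a peak is no measurement of closed chromatin.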
